A study of Mus musculus with 64 samples.

Results

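Fatty acid oxidation genes were followed in mouse liver RNA as a fixed list of 35 members, chosen by name and matched to the gene names of the count table. The list was chosen with earlier results of these data known. Counts of members called are therefore set beside the shares of all genes as description only. All 35 members were among the 53008 gene names of the table, and all 35 passed the filter on low counts that left 17318 genes for testing. By role, 5 members act in fatty acid activation and the carnitine shuttle, 10 in mitochondrial beta-oxidation, 3 in electron transfer from the acyl-CoA dehydrogenases, 12 in peroxisomes and 2 in ketone body metabolism, and 3 are regulators or targets linked to fasting. The study crossed genotype with diet. HuMgat2 mice are humanized for monoacylglycerol acyltransferase 2 (mouse gene Mogat2), an enzyme that makes diacylglycerol, and express human MOGAT2; the mMgat2 wild-type (WT) mice keep the mouse gene. Both kept for 16 weeks on a high-fat diet (HFD) or on chow, they gave the groups HuMgat2 HFD, WT HFD, HuMgat2 chow and WT chow, with 4 libraries each, all of RNA from 15 mg of whole liver at an RNA integrity number above 7. The labels give no strain, sex, age, time of collection or feeding state, and they do not say in which cells human MOGAT2 was expressed.

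Fatty acids are activated to acyl-CoA, carried into mitochondria as acylcarnitines and shortened by the repeated steps of beta-oxidation. Peroxisomes shorten very long, branched and dicarboxylic chains and pass the products on, and the liver turns much of the resulting acetyl-CoA into ketone bodies. In rodent liver many of these genes are induced during fasting through the nuclear receptor PPAR alpha, which binds DNA with RXR at a direct repeat called DR1.

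Total counts per library, in units of 1e6 (M), ranged from 12.4 M to 25.8 M. The hepatocyte markers were all detected, 8 of 8, and summed to 24680 to 79280 CPM (counts per 1e6 counts, scaled by TMM) per library in this tissue labelled as liver. Mogat2 had 0 to 2 counts in HuMgat2 HFD, 2 to 12 in WT HFD, 0 to 1 in HuMgat2 chow and 0 to 2 in WT chow, too few for a test, and the annotation has no human MOGAT2. One library, WT HFD library 4, stood apart. It held 12.4 M counts, albumin took 0.85% of them against 3.26% to 6.02% in the others, hepatocyte markers summed to 24680 CPM against 49600 to 79280 in the other 15 libraries, macrophage markers (8 of 8 detected) summed to 939 CPM against 133.5 to 360.1, and neutrophil markers to 13.98 CPM against 0 to 0.8345. Its level was the lowest of all 16 libraries for 30 of the 35 members, and the members took 0.533% of its counts, against 0.808% to 1.43% in the others. For comparisons that use WT HFD, the counts of calls and the log2 differences of the called genes named are therefore also given without it. WT chow library 6 lay below all others of its group for 27 of the 35 members. Without it the members' median log2 difference between HFD and chow in WT was -0.126, against -0.043 with all libraries, and the calls stayed at 1 higher and 3 lower. In bulk liver, fewer cells of a type and less RNA per cell cannot be told apart.

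Compared per length, as CPM per kb of exon over all 16 libraries, the 3 highest members were peroxisomal. Scp2, a sterol carrier protein whose longer form is a peroxisomal thiolase, had the highest mean, at 751 CPM per kb, followed by Phyh, which starts the alpha-oxidation of phytanic acid, at 635 CPM per kb and the thiolase Acaa1b at 331 CPM per kb. Acaa2, the thiolase of the mitochondrial matrix, led the mitochondrial enzymes at 237 CPM per kb. The long-chain acyl-CoA synthetase Acsl1 led the carnitine shuttle members at 91.7 CPM per kb, Acat1, which joins and splits acetoacetyl-CoA, stood at 70.9, the electron transfer flavoprotein subunit Etfa at 67, and Vnn1, a pantetheinase of the coenzyme A pathway, at 24.5. The coactivator Ppargc1a at 2.295 CPM per kb and Pdk4 at 2.48 were the lowest members. The group mean was highest in HuMgat2 HFD for 30 of the 35 members, among them 17 of the 18 members of the carnitine shuttle, beta-oxidation and electron transfer classes and 9 of the 12 peroxisomal ones.

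**Figure D1:**
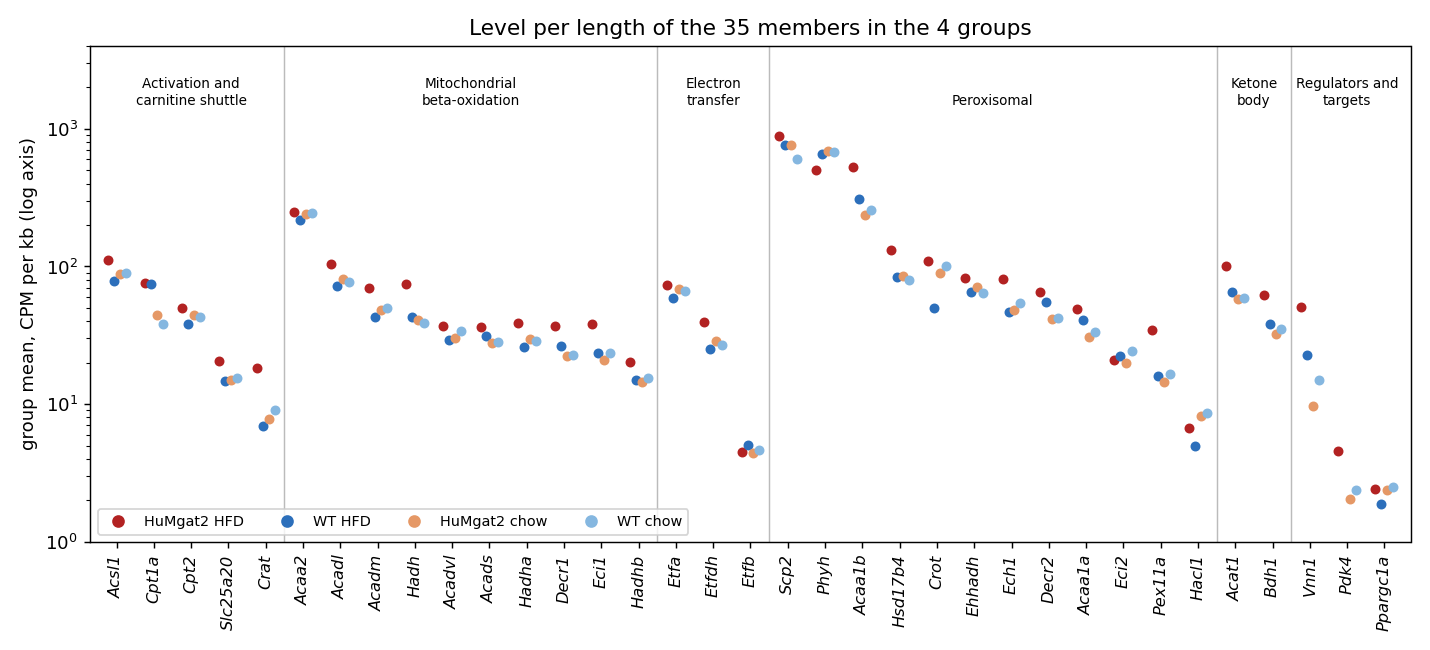
Group means of the 35 members in CPM per kb of exon length on a log axis, ordered within each role class by mean level, with 1 point for each of the 4 groups that lies on the axis. Over all libraries the members run from Ppargc1a (2.295 CPM per kb) to Scp2 (751). The WT HFD mean of Pdk4 is below 1 CPM per kb, under the lower end of the axis, and is not seen. With all libraries, the HuMgat2 HFD mean is the highest of the 4 for 30 members.

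Some levels are uncertain from the way reads were assigned. Read pairs that hit exons of more than 1 gene, or that matched several places, are not counted by default in the authors' counting, whose options also used no strand. Exons of Etfb, the second subunit of the electron transfer flavoprotein, lie under another gene over 58.2% of their length, those of Acadvl over 42.9% and those of Hacl1 over 38.3%. Of the 50-base words in the longest coding transcript, 67.3% in Etfb, 62.4% in Hadhb, 55.6% in Hacl1, 46.2% in Acaa1b, 41.4% in Scp2 and 35.1% in Acaa1a also occur in transcripts of another gene, which for Acaa1a and Acaa1b are mainly each other. The levels of these members, and how counts divide between Acaa1a and Acaa1b, are uncertain.

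The promoters of the members were read from RefSeq (GRCm38.p6, 250 bases before to 50 bases after the annotated start), and 29 of the 35 members had an entry, with 31 promoters in all. DR1 was searched on both strands as 2 copies of AGGTCA with 1 base of any kind, N, between them and with at most 2 mismatches. It was found in 2 of the 31 member promoters (6.45%) and in 1268 of all 32851 promoters of the same length (3.86%). The 2 promoters with a match belong to the carnitine-acylcarnitine carrier Slc25a20, at chr9:108661886-108662185 on the plus strand, where it lies 7 to 19 bases into the transcribed part, and to Etfa, at chr9:55512194-55512493 on the minus strand, 77 to 65 bases before the start, in the reverse orientation. They are shown with those of Pdk4 (chr6:5496229-5496528, minus strand), Crot (chr5:8997097-8997396, minus strand) and Pex11a (chr7:79743082-79743381, minus strand), which were the 3 members with a promoter entry whose diet effects differed most between the genotypes. Capitals mark the 2 copies in a match, and the other 3 windows hold none at this limit.
Slc25a20: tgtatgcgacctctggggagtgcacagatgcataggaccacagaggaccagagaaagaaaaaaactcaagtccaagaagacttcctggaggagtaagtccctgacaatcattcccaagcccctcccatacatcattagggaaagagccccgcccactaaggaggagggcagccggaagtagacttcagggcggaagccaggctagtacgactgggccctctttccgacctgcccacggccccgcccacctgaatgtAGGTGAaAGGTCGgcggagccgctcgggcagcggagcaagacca
Etfa: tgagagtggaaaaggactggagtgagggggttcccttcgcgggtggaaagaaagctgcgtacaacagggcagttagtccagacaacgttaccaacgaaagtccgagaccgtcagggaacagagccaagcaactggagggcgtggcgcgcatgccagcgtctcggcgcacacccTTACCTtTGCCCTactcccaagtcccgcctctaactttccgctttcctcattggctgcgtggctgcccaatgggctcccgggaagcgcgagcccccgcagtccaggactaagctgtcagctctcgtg
Pdk4: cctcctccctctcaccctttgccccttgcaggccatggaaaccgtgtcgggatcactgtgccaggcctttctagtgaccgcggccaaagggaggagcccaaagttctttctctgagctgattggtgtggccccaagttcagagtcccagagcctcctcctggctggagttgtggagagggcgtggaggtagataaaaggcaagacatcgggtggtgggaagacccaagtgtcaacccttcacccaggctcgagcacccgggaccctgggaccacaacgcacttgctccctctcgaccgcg
Crot: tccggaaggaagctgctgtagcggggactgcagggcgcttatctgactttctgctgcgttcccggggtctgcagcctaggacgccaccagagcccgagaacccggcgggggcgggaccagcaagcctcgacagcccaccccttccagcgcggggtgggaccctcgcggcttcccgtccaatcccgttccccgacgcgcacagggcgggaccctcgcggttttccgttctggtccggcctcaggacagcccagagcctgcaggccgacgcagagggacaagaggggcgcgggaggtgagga
Pex11a: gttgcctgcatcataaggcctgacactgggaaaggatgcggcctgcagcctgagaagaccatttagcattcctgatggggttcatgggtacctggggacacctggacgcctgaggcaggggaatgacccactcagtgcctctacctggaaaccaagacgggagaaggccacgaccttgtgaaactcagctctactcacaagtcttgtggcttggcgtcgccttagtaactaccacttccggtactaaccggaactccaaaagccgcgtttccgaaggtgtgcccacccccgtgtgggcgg

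The first comparison, HFD against chow in HuMgat2 livers, asked which members follow the diet in the humanized mice. Of the 35 members 16 rose and 0 fell at adjusted p below 0.05, where 14% of all tested genes were called (7.56% higher and 6.4% lower). The median log2 difference was 0.46 over the members and -0.01 over all tested genes. In 21 members all 4 HuMgat2 HFD libraries lay above all 4 HuMgat2 chow libraries and in 1 all lay below, where 21% of tested genes did not overlap, 11.6% lying above and 9.39% below. By class, 3 of 5 carnitine shuttle members rose, 3 of 10 beta-oxidation enzymes, 1 of 3 electron transfer members, 5 of 12 peroxisomal members, both ketone body enzymes and 2 of 3 regulators and targets. The other 19 members were not called, and for 17 of these the log2 difference was positive. Without WT HFD library 4, which is in neither group but adds to the estimate of spread, 22 rose and 1, Phyh, fell, where 10.7% and 8.58% of the genes then tested did (19.2% in all).

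**Figure D2:**
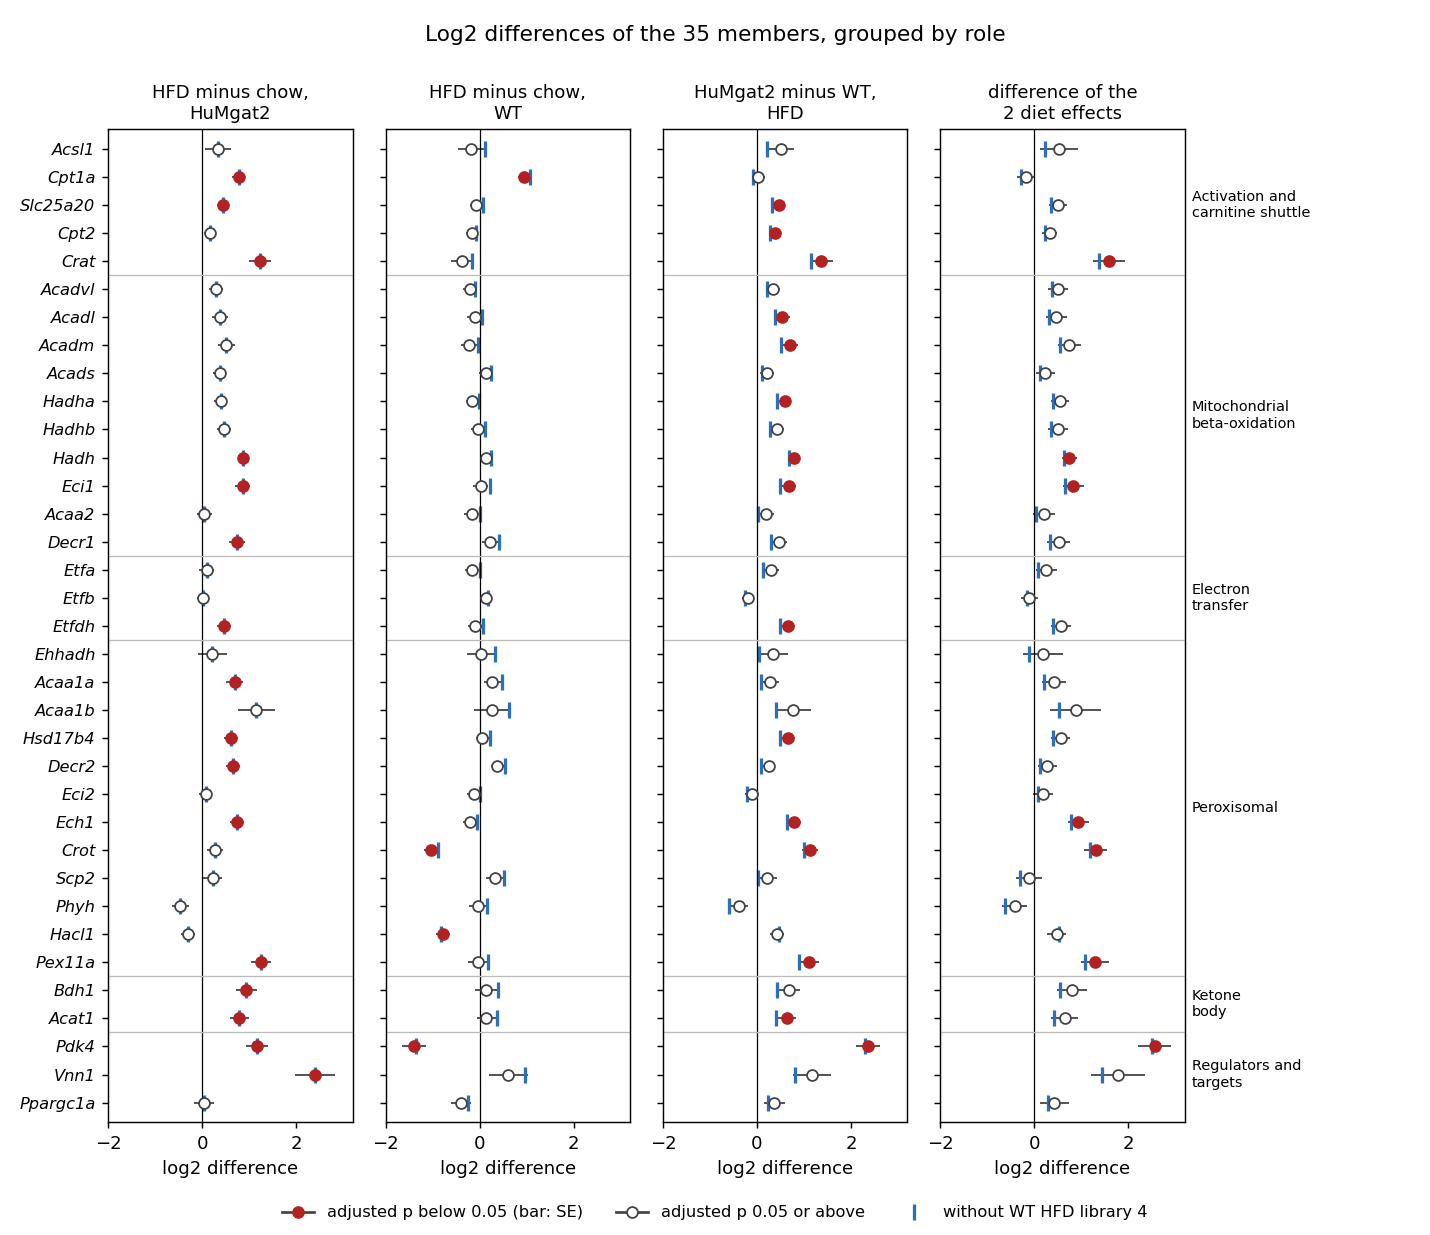
Log2 differences of the 35 members with their SE in 4 panels (HFD minus chow in HuMgat2, HFD minus chow in WT, HuMgat2 minus WT on HFD, and the difference of the 2 diet effects), with members called at adjusted p below 0.05 in red and the value without WT HFD library 4 as a blue tick. In the HuMgat2 diet panel 33 of 35 points lie right of 0, and in the WT diet panel 15 do.

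Among the carnitine shuttle members, Crat and Cpt1a rose most in HuMgat2 livers on HFD. Crat, which moves short acyl groups such as acetyl between CoA and carnitine (GRCm39, chromosome 2, 30290483 to 30305825), had 101, 81.7, 83.3 and 68.5 CPM in HuMgat2 HFD and 37.5, 38.7, 36.1 and 16.2 CPM in WT HFD. On chow, Crat had 33.8, 49.6, 26.4 and 32.4 CPM in HuMgat2 and 46.3, 30.3, 39.4 and 50.4 CPM in WT. The HuMgat2 HFD libraries lay above every other library and the other 3 groups overlapped. On HFD against chow Crat rose 2.34-fold in HuMgat2 livers (log2 1.23 ± 0.24 SE, adjusted p = 0.00265). Cpt1a, the rate-controlling step of entry into mitochondria (chromosome 19, 3373285 to 3435733), had 495, 540.4, 498 and 524 CPM in HuMgat2 HFD and 548, 523, 561 and 383 CPM in WT HFD. On chow, Cpt1a had 286, 376, 246 and 293 CPM in HuMgat2 and 254, 236, 285 and 267 CPM in WT. Both HFD groups lay above both chow groups, WT HFD library 4 included, and the 2 HFD groups overlapped. Cpt1a rose 1.71-fold in HuMgat2 livers (log2 0.78 ± 0.14 SE, adjusted p = 0.00139). Slc25a20 rose 1.36-fold (log2 0.44 ± 0.13 SE, adjusted p = 0.0352). Its mean was 98.9 ± 4.26 CPM in HuMgat2 HFD, against 72.8 ± 6.12 CPM in HuMgat2 chow (SD, n = 4 each). This call was lost when any 1 HuMgat2 library other than chow library 16 was left out. Cpt2, which remakes acyl-CoA in the matrix, and Acsl1 were not called.

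Acsl1, the member of this class with the highest level per length, had 1299, 1202, 1265 and 889 CPM in HuMgat2 HFD and 968, 1025, 1024 and 267 CPM in WT HFD. On chow, Acsl1 had 949, 851, 954 and 942 CPM in HuMgat2 and 946, 868, 961 and 965 CPM in WT. Of the HuMgat2 HFD libraries 3 lay above all HuMgat2 chow libraries and 1 lay among them, and its log2 difference of 0.33 ± 0.28 SE was not called (adjusted p = 0.488).

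Among the beta-oxidation enzymes, Hadh, Eci1 and Decr1 rose. Hadh, which oxidises medium- and short-chain 3-hydroxyacyl-CoA (chromosome 3, 131027068 to 131065750), had 346, 384, 393 and 358 CPM in HuMgat2 HFD and 230, 225, 237 and 160.4 CPM in WT HFD. On chow, Hadh had 215, 212, 192 and 190.4 CPM in HuMgat2 and 194, 175, 206 and 205 CPM in WT. All 4 HuMgat2 HFD libraries lay above every other library. Hadh rose 1.83-fold on HFD in HuMgat2 livers (log2 0.87 ± 0.12 SE, adjusted p = 0.000108). Eci1, an isomerase that lets unsaturated chains enter the cycle, had 72.9, 85.4, 85.1 and 79.1 CPM in HuMgat2 HFD and 55.6, 57.9, 59 and 29.2 CPM in WT HFD. On chow, Eci1 had 43.3, 42.7, 41.6 and 50.5 CPM in HuMgat2 and 53.2, 45.9, 52.1 and 47.4 CPM in WT. The HuMgat2 HFD libraries again lay above all others, and Eci1 rose 1.81-fold (log2 0.86 ± 0.16 SE, adjusted p = 0.00189). Decr1, a reductase needed to break down polyunsaturated chains, had 130.3, 148, 149 and 146 CPM in HuMgat2 HFD and 125, 101, 125 and 59.1 CPM in WT HFD. On chow, Decr1 had 94.3, 80.5, 81.4 and 88.2 CPM in HuMgat2 and 94.4, 76.8, 91.6 and 91.1 CPM in WT. Its HuMgat2 HFD libraries lay above all others, and it rose 1.66-fold (log2 0.73 ± 0.17 SE, adjusted p = 0.00777).

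The 7 other beta-oxidation enzymes were not called in this comparison, with log2 differences of 0.05 to 0.51. For 4 of them, Acadm, Acads, Hadha and Hadhb, the HuMgat2 HFD libraries all lay above the HuMgat2 chow libraries. Acadm, the medium-chain acyl-CoA dehydrogenase, had 273, 274, 283 and 255 CPM in HuMgat2 HFD and 204, 179.5, 192 and 92 CPM in WT HFD. On chow, Acadm had 209, 192, 179.5 and 179 CPM in HuMgat2 and 195, 178, 196 and 214 CPM in WT. Its log2 difference was 0.51 ± 0.17 SE (adjusted p = 0.057). Hadha and Hadhb, the 2 subunits of the trifunctional protein, are neighbours on opposite strands of chromosome 5 (30323302 to 30360160 and 30360246 to 30389591). Hadha averaged 340.2 ± 14.4 CPM in HuMgat2 HFD and 259.6 ± 3.51 CPM in HuMgat2 chow, and Hadhb averaged 133.2 ± 9.18 CPM in HuMgat2 HFD and 96.3 ± 8.26 CPM in HuMgat2 chow (SD, n = 4 each), with adjusted p = 0.0613 for Hadha and 0.0513 for Hadhb. Without WT HFD library 4, Acadl, Acadm, Acads, Hadha and Hadhb were called higher. Acaa2, the most abundant of the class per length, had 379.8, 376, 392 and 352 CPM in HuMgat2 HFD and 381, 366, 366 and 201 CPM in WT HFD. On chow, Acaa2 had 352, 361, 329 and 412 CPM in HuMgat2 and 403, 321, 410.2 and 340.1 CPM in WT. Its HuMgat2 groups overlapped, and its log2 difference was 0.05 ± 0.16 SE (adjusted p = 0.892).

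Of the 3 electron transfer members 1 was called. Etfdh, which hands electrons from the flavoprotein to ubiquinone, had 294, 294, 306 and 289.7 CPM in HuMgat2 HFD and 216, 203, 215 and 116 CPM in WT HFD. On chow, Etfdh had 231, 210.2, 209 and 209 CPM in HuMgat2 and 200.4, 184, 213 and 208 CPM in WT. Its HuMgat2 HFD libraries lay above all others, and it rose 1.38-fold (log2 0.46 ± 0.15 SE, adjusted p = 0.0434), a call lost in 15 of the 23 alternative fits, among them those without any 1 of the 8 HuMgat2 libraries. Etfa had 141, 135, 141 and 122 CPM in HuMgat2 HFD and 126, 113, 130.3 and 66.7 CPM in WT HFD. On chow, Etfa had 142, 132, 108 and 122 CPM in HuMgat2 and 119, 113, 119.6 and 137 CPM in WT. The HuMgat2 groups overlapped, with a log2 difference of 0.1 ± 0.16 SE (adjusted p = 0.744). Etfb, whose level is uncertain, averaged 5.205 ± 0.495 CPM in HuMgat2 HFD and 5.13 ± 0.457 CPM in HuMgat2 chow (SD, n = 4 each) and was not called.

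Of the peroxisomal members, Pex11a, Ech1, Acaa1a, Decr2 and Hsd17b4 rose. Pex11a, which takes part in the division and elongation of peroxisomes (chromosome 7, 79385705 to 79392879), had 105, 106, 103 and 127 CPM in HuMgat2 HFD and 56.8, 56, 65.2 and 25.3 CPM in WT HFD. On chow, Pex11a had 42.4, 38, 45.3 and 59.7 CPM in HuMgat2 and 60.3, 44.2, 55.2 and 49.6 CPM in WT. The lowest HuMgat2 HFD library lay above every library of the other groups. Pex11a rose 2.37-fold (log2 1.25 ± 0.21 SE, adjusted p = 0.000969). Ech1, a dienoyl-CoA isomerase found in peroxisomes and mitochondria (chromosome 7, 28524642 to 28531672), had 194, 182, 176 and 167 CPM in HuMgat2 HFD and 123, 111, 113 and 69.1 CPM in WT HFD. On chow, Ech1 had 101, 113, 93.6 and 124 CPM in HuMgat2 and 141, 101, 132 and 105 CPM in WT. All HuMgat2 HFD libraries lay above the rest, and Ech1 rose 1.67-fold (log2 0.74 ± 0.16 SE, adjusted p = 0.00456). Acaa1a, a peroxisomal thiolase, had 184, 208, 208 and 205 CPM in HuMgat2 HFD and 180.4, 203, 189 and 89.6 CPM in WT HFD. On chow, Acaa1a had 114, 127, 124 and 134 CPM in HuMgat2 and 164, 132, 139 and 113 CPM in WT. Its HuMgat2 HFD libraries overlapped with those of WT HFD and lay above both chow groups, and it rose 1.62-fold (log2 0.69 ± 0.18 SE, adjusted p = 0.0181), with adjusted p = 0.053 when HuMgat2 chow library 13 was left out.

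Decr2, the peroxisomal counterpart of Decr1, rose 1.57-fold to 173.8 ± 12 CPM in HuMgat2 HFD, against 110.4 ± 8.75 CPM in HuMgat2 chow, and Hsd17b4, the D-bifunctional enzyme, rose 1.53-fold to 446 ± 39.7 CPM in HuMgat2 HFD, against 291 ± 26.5 CPM in HuMgat2 chow (SD, n = 4 each). Acaa1b, the second thiolase, averaged 1028 ± 65.8 CPM in HuMgat2 HFD and 464 ± 30.5 CPM in HuMgat2 chow (SD, n = 4 each), with no overlap, but was not called with all libraries (log2 1.15 ± 0.39 SE, adjusted p = 0.0623). Its adjusted p was 1.18e-06 once WT HFD library 4 was left out, where Acaa1b stood at 94.7 CPM against 706 to 815 CPM in the other WT HFD libraries. Phyh was the 1 member whose HuMgat2 HFD libraries all lay below those of HuMgat2 chow, at 954.5 ± 53.05 CPM in HuMgat2 HFD and 1316 ± 122 CPM in HuMgat2 chow (SD, n = 4 each; log2 -0.46 ± 0.19 SE, adjusted p = 0.119). It was called lower without WT HFD library 4 (adjusted p = 0.00696). The other 5, Ehhadh, Eci2, Crot, Scp2 and Hacl1, were not called, with log2 differences of -0.3 to 0.28. Ehhadh, the L-bifunctional enzyme, stood at 304 CPM in HuMgat2 chow library 14, against 176 to 194 CPM in the other HuMgat2 chow libraries. Scp2 had 2934, 3260, 3073 and 3000 CPM in HuMgat2 HFD and 3335, 2981, 2728 and 1510 CPM in WT HFD. On chow, Scp2 had 3008, 2157, 2668 and 2703 CPM in HuMgat2 and 2023, 2177, 1933 and 2265 CPM in WT. Its HuMgat2 groups overlapped.

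**Figure D3:**
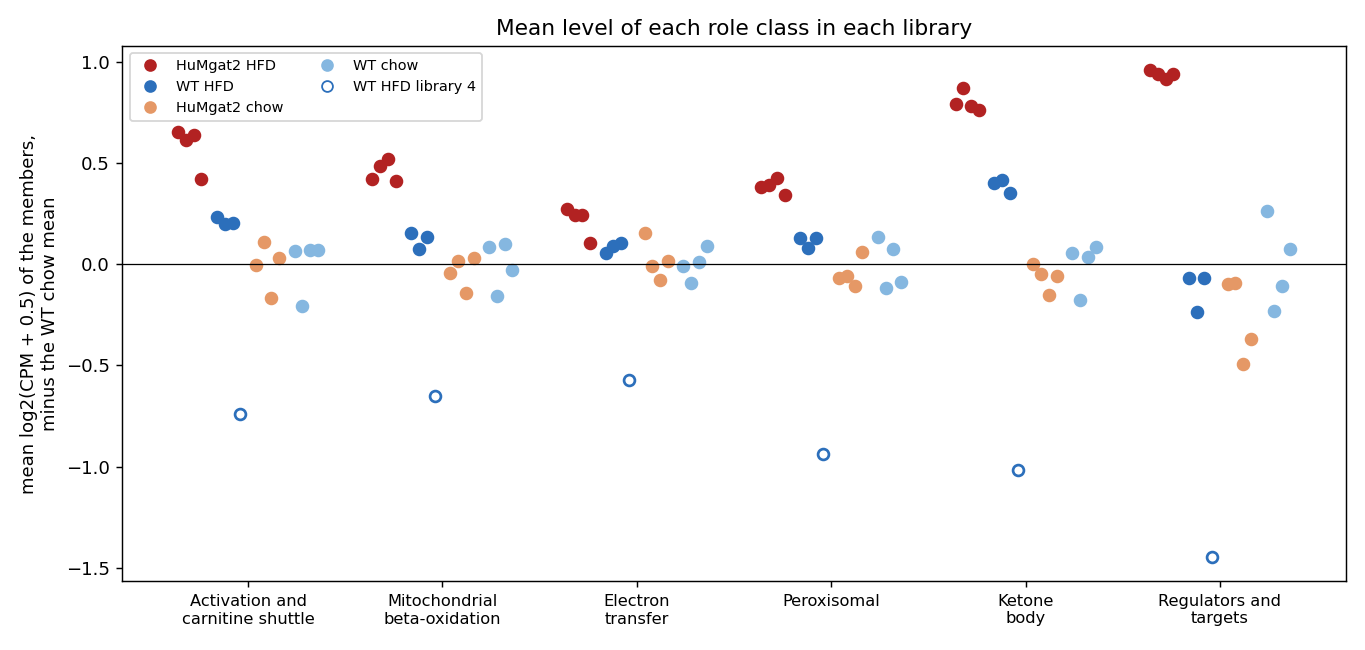
Mean of log2(CPM + 0.5) over the members of each role class in each of the 16 libraries, minus the mean of the 4 WT chow libraries, with WT HFD library 4 as an open circle. The HuMgat2 HFD libraries lie between 0.41 and 0.52 for the beta-oxidation enzymes and between 0.34 and 0.42 for the peroxisomal members, above the other 3 groups in both, and WT HFD library 4 lies at -0.65 for the beta-oxidation enzymes and -0.94 for the peroxisomal members.

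Both ketone body enzymes rose. Bdh1, the mitochondrial enzyme that interconverts acetoacetate and 3-hydroxybutyrate (chromosome 16, 31241098 to 31277719), had 229, 238, 233 and 242 CPM in HuMgat2 HFD and 169, 185, 170.2 and 60.7 CPM in WT HFD. On chow, Bdh1 had 118, 126, 110.1 and 138 CPM in HuMgat2 and 141, 111, 148 and 132 CPM in WT. Acat1 (chromosome 9, 53491822 to 53521682) had 384, 412, 373 and 348 CPM in HuMgat2 HFD and 302, 282, 279 and 116 CPM in WT HFD. On chow, Acat1 had 249, 218, 214 and 196 CPM in HuMgat2 and 224, 206, 207 and 249 CPM in WT. In both genes the HuMgat2 HFD libraries lay above all others, and the WT HFD libraries other than library 4 came next. Bdh1 rose 1.92-fold (log2 0.94 ± 0.23 SE, adjusted p = 0.0112) and Acat1 rose 1.73-fold (log2 0.79 ± 0.21 SE, adjusted p = 0.0163) on HFD in HuMgat2 livers.

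Of the regulators and targets, Vnn1 (chromosome 10, 23770586 to 23781241) rose most of all 35 members. It had 116, 125, 129 and 123 CPM in HuMgat2 HFD and 78.9, 62.2, 69.2 and 8.02 CPM in WT HFD. On chow, Vnn1 had 24.5, 19.5, 19.7 and 30 CPM in HuMgat2 and 45.3, 21.8, 39.9 and 36.6 CPM in WT. Its HuMgat2 HFD libraries lay far above all others and its HuMgat2 chow libraries were low, and it rose 5.26-fold (log2 2.39 ± 0.43 SE, adjusted p = 0.00133). Pdk4, a kinase that turns off pyruvate dehydrogenase and so spares glucose (chromosome 6, 5483351 to 5496309), had 16.1, 17.1, 15.6 and 15.9 CPM in HuMgat2 HFD and 3.76, 2.55, 3.57 and 2.7 CPM in WT HFD. On chow, Pdk4 had 7.62, 9.45, 5.21 and 6.51 CPM in HuMgat2 and 11.2, 11.2, 4.44 and 6.67 CPM in WT. The HuMgat2 HFD libraries were the highest and the WT HFD libraries the lowest, and neither overlapped with any other group. Pdk4 rose 2.24-fold in HuMgat2 livers (log2 1.16 ± 0.24 SE, adjusted p = 0.00389). Ppargc1a averaged 16.01 ± 1.36 CPM in HuMgat2 HFD and 15.65 ± 4.375 CPM in HuMgat2 chow (SD, n = 4 each) and was not called.

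**Figure D4:**
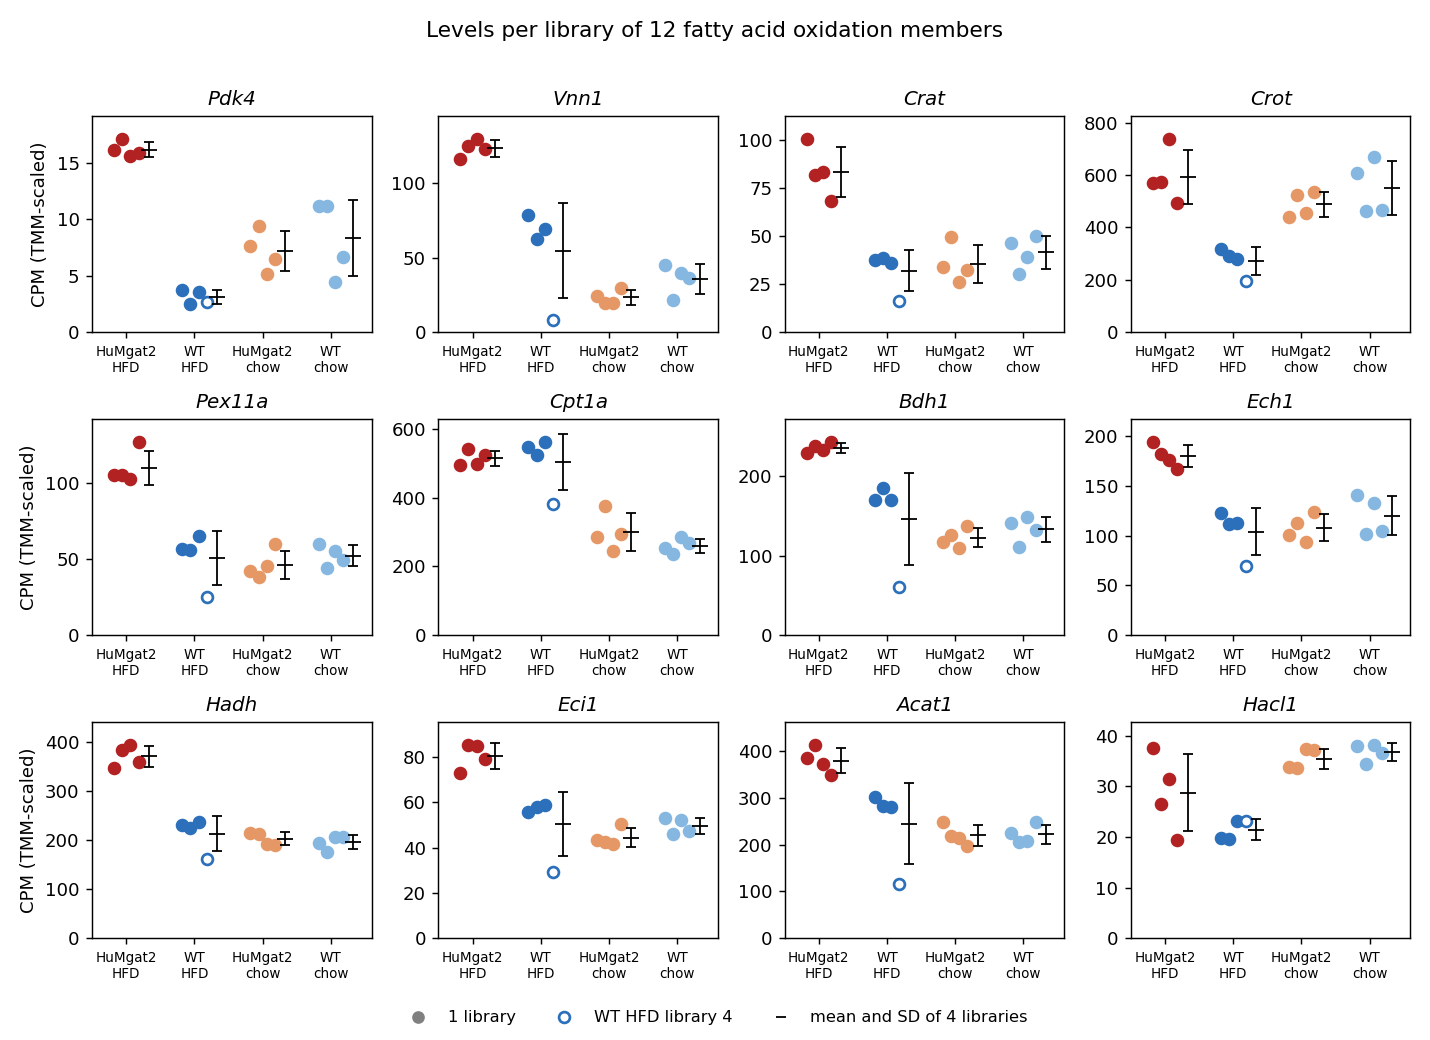
Levels in CPM of 12 members in each of the 16 libraries by group, with mean and SD of 4 libraries beside the points and WT HFD library 4 as an open circle. Pdk4 lies between 15.6 and 17.1 CPM in HuMgat2 HFD and between 2.55 and 3.76 CPM in WT HFD, and Cpt1a is high in both HFD groups.

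Of 58 tested genes on fixed lists of other mitochondrial, peroxisomal, ketone body and regulatory genes, 15 rose and 8 fell in the same comparison. Of the 6 with the largest change, the hepatokine gene Fgf21 rose by 2.73 on the log2 scale, Aacs, which channels acetoacetate into lipid synthesis, by 2.02, the receptor gene Pparg by 1.52 and Aldh3a2, which oxidises fatty aldehydes, by 1.42, while Nudt7, a peroxisomal coenzyme A hydrolase, fell by 1.34 and Acadsb, a dehydrogenase of branched short chains, fell by 1.08. The receptor gene Ppara was not called (log2 0.51 ± 0.17 SE, adjusted p = 0.0515) and was called when WT HFD library 4 was left out of the fit (adjusted p = 0.00736).

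Marker levels of other cell types moved with diet in these livers as well. Of 8 hepatocyte markers 0 rose and 3 fell, with sums of 49600 to 60990 CPM in HuMgat2 HFD against 53050 to 79280 in HuMgat2 chow, and 5 of 6 stellate cell markers rose, with sums of 373 to 442 CPM in HuMgat2 HFD against 182 to 296 in HuMgat2 chow. Among 6 genes of mitochondria outside fatty acid oxidation, such as citrate synthase, 3 rose, with a median log2 difference of 0.19. Of 4 cholangiocyte markers 1 fell. All 8 macrophage markers had positive log2 differences, with sums of 206 to 259 CPM in HuMgat2 HFD against 157 to 203 in HuMgat2 chow. Of these 8, 0 were called with all libraries and 2 were called higher with WT HFD library 4 left out of the fit. The adipocyte marker Cfd was at 3.01 to 6.97 CPM in HuMgat2 HFD and 0 to 0.234 CPM in HuMgat2 chow and was called higher (adjusted p = 0.0116), while the other 4 adipocyte markers had too few counts for the test. The part of these in the members' differences was not tested.

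In WT livers on HFD against chow, 1 of the 35 members rose and 3 fell, where 15.1% of tested genes were called, 8.37% higher and 6.74% lower. The count of higher members rests on 1 library, since 9 rose and 3 fell when WT HFD library 4 was left out. The median log2 difference was -0.04 over the members and 0.03 over all tested genes. In the same 4 members, 1 above and 3 below, the WT HFD libraries did not overlap with WT chow, where 18.2% of tested genes did not overlap (9.09% above, 9.11% below). These overlap counts became 14 above and 3 below without WT HFD library 4, where the share of all tested genes was not counted. The 1 that rose was Cpt1a, 1.93-fold (log2 0.95 ± 0.14 SE, adjusted p = 0.000433). The 3 that fell were Pdk4, Crot and Hacl1.

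Pdk4 fell 2.64-fold (log2 -1.4 ± 0.26 SE, adjusted p = 0.00205), with all 4 WT HFD libraries, in the values given above, below all 4 WT chow libraries. Crot, a peroxisomal enzyme that turns medium-chain acyl-CoA into acylcarnitines for export to mitochondria (chromosome 5, 9016033 to 9047324), had 569, 572, 736 and 495 CPM in HuMgat2 HFD and 318, 292, 279.8 and 195 CPM in WT HFD. On chow, Crot had 441, 522, 456 and 536 CPM in HuMgat2 and 608, 462, 668 and 467 CPM in WT. The WT HFD libraries lay below all 12 others, and the other 3 groups overlapped. Crot fell 2.03-fold on HFD in WT livers (log2 -1.02 ± 0.17 SE, adjusted p = 0.00104). Hacl1, a lyase of alpha-oxidation whose level is uncertain because much of its exon length lies under another gene, had 37.6, 26.6, 31.4 and 19.5 CPM in HuMgat2 HFD and 19.8, 19.6, 23.3 and 23.2 CPM in WT HFD. On chow, Hacl1 had 33.9, 33.7, 37.3 and 37.1 CPM in HuMgat2 and 38, 34.4, 38.2 and 36.7 CPM in WT. Both chow groups were narrow, the WT HFD libraries lay below them, and HuMgat2 HFD was spread over 19.5 to 37.6 CPM. Hacl1 fell 1.72-fold in WT livers (log2 -0.78 ± 0.14 SE, adjusted p = 0.00205).

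These 4 calls held without WT HFD library 4, with log2 differences of 1.06 for Cpt1a, -1.35 for Pdk4, -0.89 for Crot and -0.82 for Hacl1. The 9 and 3 called then stand against 7.69% higher and 7.01% lower of the 17642 genes tested (14.7% in all). The 8 added were Decr1, Acaa1a, Acaa1b, Decr2, Scp2, Bdh1, Acat1 and Vnn1, with log2 differences of 0.38 for Acat1 to 0.96 for Vnn1, and the members' median was 0.12. Vnn1, at 62.2 to 78.8 CPM in the other 3 WT HFD libraries and 8.02 CPM in library 4, was not called with all libraries (log2 0.61 ± 0.41 SE, adjusted p = 0.343). For 9 members the sign of the WT difference changed when this 1 library was left out, among them Acsl1, at 0.11 without it and -0.19 with it.

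Of the 58 other pathway genes, 7 rose and 3 fell on HFD in WT livers, and 17 rose and 3 fell when WT HFD library 4 was left out. Aacs rose by 1.17 on the log2 scale, Acacb, which makes the inhibitor of Cpt1a, by 0.88 and the mitochondrial dehydrogenase Hsd17b10 by 0.76, while Bdh2, a cytosolic short-chain dehydrogenase, fell by 0.96 and the monocarboxylate carrier Slc16a1 fell by 0.73. Ppara rose 1.54-fold (log2 0.63 ± 0.17 SE, adjusted p = 0.0189). Of the 23 alternative fits, 7 lost the call of Hsd17b10, 5 that of Aacs and 3 that of Ppara. All 6 kept their calls without WT HFD library 4, with log2 differences of 1.41 for Aacs, 0.95 for Acacb, 1 for Hsd17b10, 0.78 for Ppara, -0.81 for Bdh2 and -0.65 for Slc16a1. Of 8 macrophage markers 5 rose and of 8 hepatocyte markers 0 were called, with sums of 218.5 to 939 CPM in WT HFD against 133.5 to 224 in WT chow for macrophage markers. Hepatocyte markers summed to 24680 to 56640 CPM in WT HFD, or 54150 to 56640 in libraries 1 to 3, against 62700 to 75730 in WT chow. Of their 8 log2 differences 2 were positive and 6 negative. Only 2 macrophage markers rose once WT HFD library 4 was left out. Of 6 stellate cell markers 1 rose and of 5 lymphocyte markers tested 1 rose, with the same counts without that library. Of 6 genes of mitochondria outside fatty acid oxidation 1 rose with that library (median log2 difference -0.001) and 1 without it (0.117). Cfd was at 78.9 to 130 CPM in WT HFD libraries 1 to 3 and 0.159 CPM in library 4, against 0.136 to 0.416 CPM in WT chow, and was called higher with it (adjusted p = 0.000243) and without it (adjusted p = 4.18e-10). Their part in the members' differences was not tested.

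On HFD, HuMgat2 livers were compared with WT livers to ask whether the members differ by genotype under the same diet. Of the 35 members 15 were higher and 0 lower in HuMgat2, where 14.8% of tested genes were called (7.21% higher and 7.56% lower). The count was 8 higher and 0 lower in the fit of these 2 groups alone, where 1947 of 16566 tested genes were called. With limma voom it was 20 higher and 1 lower, where 4323 of 17318 tested genes were called. The median log2 difference was 0.48 over the members and -0.04 over all tested genes. In 21 members all HuMgat2 HFD libraries lay above all WT HFD libraries and in 0 all lay below, where 21.2% of tested genes did not overlap, 10.9% lying above and 10.3% below. These overlap counts were 21 above and 2 below without WT HFD library 4, where the share of all tested genes was not counted. By class, 3 of 5 carnitine shuttle members were higher, 5 of 10 beta-oxidation enzymes, 1 of 3 electron transfer members, 4 of 12 peroxisomal members, 1 of 2 ketone body enzymes and 1 of 3 regulators and targets. Without WT HFD library 4, 16 were higher and 1, Phyh, was lower, against 7.39% higher and 6.79% lower among the genes then tested (14.2% in all), and the members' median was 0.32. This comparison shares the HuMgat2 HFD libraries with the diet comparison in HuMgat2.

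Pdk4 differed most, 5.11-fold higher in HuMgat2 than in WT on HFD (log2 2.35 ± 0.26 SE, adjusted p = 2.04e-05; 2.3 in the fit that leaves WT HFD library 4 out). Crat was 2.58-fold higher (log2 1.37 ± 0.24 SE, adjusted p = 0.00137; 1.16 without it), Crot 2.19-fold higher (log2 1.13 ± 0.17 SE, adjusted p = 0.000416; 1 without it) and Pex11a 2.16-fold higher (log2 1.11 ± 0.21 SE, adjusted p = 0.00256; 0.89 without it). In each of these 4 the lowest HuMgat2 HFD library exceeded the highest WT HFD library. Hadh was 1.74-fold and Ech1 1.73-fold higher, with adjusted p = 0.000283 for Hadh and 0.00322 for Ech1. Both kept their calls in all 23 alternative fits, at log2 0.69 for Hadh and 0.64 for Ech1 when WT HFD library 4 was left out.

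Etfdh was 1.58-fold higher (log2 0.66 ± 0.15 SE, adjusted p = 0.00676), Acadm 1.63-fold (log2 0.7 ± 0.17 SE, adjusted p = 0.0126), Eci1 1.59-fold (log2 0.67 ± 0.16 SE, adjusted p = 0.01), Hsd17b4 1.57-fold (log2 0.65 ± 0.15 SE, adjusted p = 0.00786) and Hadha 1.5-fold (log2 0.59 ± 0.13 SE, adjusted p = 0.00764). The remaining 4 calls, Slc25a20, Cpt2, Acadl and Acat1, had log2 differences of 0.38 for Cpt2 to 0.63 for Acat1 and adjusted p of 0.0258 to 0.0487, and each was lost when some single libraries were left out. These 9 log2 differences were smaller without WT HFD library 4, at 0.49 for Etfdh, 0.5 for Acadm, 0.49 for Eci1, 0.49 for Hsd17b4, 0.44 for Hadha, 0.32 for Slc25a20, 0.29 for Cpt2, 0.39 for Acadl and 0.4 for Acat1. The fit that left WT HFD library 4 out lost the calls of Cpt2 (adjusted p = 0.0608) and Acadl (adjusted p = 0.0553) and called Acaa1b, Bdh1 and Vnn1 higher instead. Phyh, at 904 to 1023 CPM in HuMgat2 HFD and 1327 to 1612 CPM in WT HFD libraries 1 to 3, was lower without library 4 (-0.59 on the log2 scale, adjusted p = 0.00302) and not called with it. Cpt1a was not called, at 514 ± 21.7 CPM in HuMgat2 HFD and 503.5 ± 82.2 CPM in WT HFD (SD, n = 4 each; log2 0.03 ± 0.14 SE, adjusted p = 0.91), and neither were Acaa2 (log2 0.19 ± 0.16 SE, adjusted p = 0.455) and Scp2 (log2 0.22 ± 0.2 SE, adjusted p = 0.492).

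Of the 58 other pathway genes, 8 were higher and 6 lower in HuMgat2 on HFD, or 8 and 5 without WT HFD library 4. The peroxisomal transporter gene Abcd2 was higher by 2.55 on the log2 scale, Fgf21 by 2.2 and Slc16a1 by 1.31, while Nudt7 (-1.5) and the coactivator gene Ppargc1b (-0.72) were lower, the last with a call lost in 17 of 23 alternative fits. These 5 were also called without WT HFD library 4, at 2.33 for Abcd2, 1.97 for Fgf21, 1.24 for Slc16a1, -1.66 for Nudt7 and -0.94 for Ppargc1b. Ppara was not called (log2 0.03 ± 0.17 SE, adjusted p = 0.921). Stellate cell markers summed to 373 to 442 CPM in HuMgat2 HFD and 262 to 353 in WT HFD, with 3 of 6 higher, hepatocyte markers to 49600 to 60990 CPM in HuMgat2 HFD and 24680 to 56640 in WT HFD, with 3 of 8 lower, and macrophage markers to 206 to 259 CPM in HuMgat2 HFD and 218.5 to 939 in WT HFD, with 2 of 8 lower, or 0 of 8 without WT HFD library 4. Of 5 erythroid markers 3 were higher, or 4 without that library, and of 5 lymphocyte markers tested 2 were lower with it and without it. Among 6 genes of mitochondria outside fatty acid oxidation 1 was higher with that library (median log2 difference 0.205) and 1 without it (0.132). Of 5 adipocyte markers Cfd was at 3.01 to 6.97 CPM in HuMgat2 HFD and at 78.9 to 130 CPM in WT HFD libraries 1 to 3 (0.159 in library 4), while Adipoq, Plin1, Lep and Ucp1 were at 0.0936 CPM or below in all libraries. The part of these markers in the members' differences was not tested.

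On chow no member was called between the genotypes. With the edgeR quasi-likelihood test 0 of 35 members were higher and 0 lower in HuMgat2, and 0 had an unadjusted p below 0.05. By this test 0.508% of all tested genes were called (0.266% higher and 0.243% lower). DESeq2 called 0 members, where it called 238 of 17318 genes. The groups overlapped in all 35 members, where 6.62% of tested genes did not overlap (3.39% above, 3.23% below). With WT HFD library 4 left out of the fit the member counts were again 0 and 0, against 0.635% and 0.521% of the genes then tested (1.16% in all). The members' median log2 difference was -0.04 and that of all tested genes 0.004. Limma voom with quality weights gave 3 members an unadjusted p below 0.05 and 0 calls. The edgeR fit of the 2 chow groups alone gave 2 such members and 0 calls, and that without WT HFD library 4 gave 3 and 0. The largest differences were in Vnn1, at 23.4 ± 4.96 CPM in HuMgat2 chow and 35.9 ± 10.05 CPM in WT chow (log2 -0.62 ± 0.41 SE, adjusted p = 0.642), and in Scp2, at 2634 ± 353 CPM in HuMgat2 chow and 2099 ± 150 CPM in WT chow (SD, n = 4 each; log2 0.33 ± 0.2 SE, adjusted p = 0.596). Of the 58 other pathway genes 0 were called, and Ppara (log2 0.15 ± 0.17 SE, adjusted p = 0.805) was not. With WT HFD library 4 left out of the fit, 1 of the 58, on the list of regulators, was called lower in HuMgat2.

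Whether the diet effect differed between the genotypes was tested as the interaction, the HFD effect in HuMgat2 minus that in WT. It was called for 7 of the 35 members, all positive, and 0 were negative, where 4.87% of tested genes were called (2.61% positive and 2.26% negative). The median was 0.51 over the members and -0.05 over all tested genes, and 31 of 35 were above 0. Without WT chow library 6 the members' median was 0.585. The 7 were Pdk4 (log2 2.56 ± 0.35 SE, adjusted p = 0.000527), Crat (log2 1.59 ± 0.34 SE, adjusted p = 0.0123), Crot (log2 1.3 ± 0.24 SE, adjusted p = 0.00446), Pex11a (log2 1.29 ± 0.3 SE, adjusted p = 0.0203), Ech1 (log2 0.94 ± 0.22 SE, adjusted p = 0.0207), Eci1 (log2 0.83 ± 0.23 SE, adjusted p = 0.0432) and Hadh (log2 0.74 ± 0.16 SE, adjusted p = 0.0143). By class they are 1 of 5 carnitine shuttle members, 2 of 10 beta-oxidation enzymes, 3 of 12 peroxisomal members and 1 of 3 regulators and targets, and neither an electron transfer member nor a ketone body enzyme was among them.

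The 7 reached the difference in unlike ways. In Pdk4 the diet effect was up in HuMgat2 and down in WT, both called. In Crot the WT fall was called and the HuMgat2 difference of 0.28 was not. In Crat, Pex11a, Ech1, Eci1 and Hadh the HuMgat2 rise was called, while the WT differences of -0.37 for Crat to 0.13 for Hadh were not. Cpt1a, called higher in both genotypes, had an interaction of -0.18 ± 0.2 SE (adjusted p = 0.686). The promoter windows of Pdk4, Crot and Pex11a printed above hold no DR1 at the limit used, but only 3.86% of all promoters hold one. Crat had no promoter entry, and a link between DR1 and the diet effects was not tested.

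When WT HFD library 4 was left out, the interaction was called positive for 13 members and negative for 1, where 3.4% and 3% of the genes then tested were called (6.4% in all). All 7 remained called, with log2 values of 2.51 for Pdk4, 1.38 for Crat, 1.17 for Crot, 1.07 for Pex11a, 0.79 for Ech1, 0.65 for Eci1 and 0.63 for Hadh. The 6 added were Acadm, Hadha, Etfdh, Acaa1b, Bdh1 and Vnn1, and the negative one was Phyh at -0.62. With all libraries the call of Eci1 was lost when any 1 of 12 libraries was left out and that of Ech1 when HuMgat2 chow library 15 (adjusted p = 0.0511) or WT chow library 5 (adjusted p = 0.0526) was.

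Of the 58 other pathway genes the interaction was positive for 3 and negative for 4, or for 5 and 5 when WT HFD library 4 was left out. Fgf21 (log2 3.1 ± 0.62 SE, adjusted p = 0.00789) and Slc16a1 (log2 1.39 ± 0.16 SE, adjusted p = 0.000125) were positive, as was Abcd2 (log2 3.24 ± 0.9 SE, adjusted p = 0.0486), which stood at 43.1 CPM in HuMgat2 chow library 14 and 2.39 to 6.65 CPM in the other HuMgat2 chow libraries and whose call was lost in 14 of 22 alternative fits. Nudt7 (log2 -1.93 ± 0.35 SE, adjusted p = 0.004), Acadsb (log2 -0.93 ± 0.2 SE, adjusted p = 0.0135) and Amacr, a racemase of branched-chain oxidation (log2 -0.54 ± 0.13 SE, adjusted p = 0.0245), were negative. Without WT HFD library 4 the values were 2.86 for Fgf21, 1.32 for Slc16a1, -2.09 for Nudt7, -1.05 for Acadsb and -0.54 for Amacr, all called, the call of Abcd2 was lost (3, adjusted p = 0.0529), Aldh3a2 (0.65) and Pparg (0.97) were called positive, and Hsd17b10 (-0.67) and Ppargc1b (-1.22) were called negative. Ppara was not called (log2 -0.12 ± 0.23 SE, adjusted p = 0.837). Among the cell type markers the interaction was negative for 1 of 8 hepatocyte and 1 of 5 lymphocyte markers and positive for 1 of 6 stellate cell markers. These counts were the same without that library. Of 6 genes of mitochondria outside fatty acid oxidation 0 were called, and 1 was positive without that library. The part of the markers and of these genes in the members' values was not tested. The labels tell libraries apart by number and do not say that each came from its own mouse, so the p-values measure the spread between these libraries.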

How the data were processed

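Liver RNA was sequenced in 16 libraries, 4 per group, which the 64 sample records share at 4 records each. The deposited values are raw read-pair counts per gene name, per the file headers, made by the authors with featureCounts 2.0.1 on GRCm39 (Ensembl 103), requiring both ends mapped and using no strand option. The submitters' processing notes name STAR 2.7, mm39 and DESeq2 1.26.0. All 35 members and the other lists were chosen with earlier results of these data known.

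Counts were tested in R 4.3.3 with edgeR 4.0.16 (TMM scaling, filterByExpr, quasi-likelihood test) in 1 fit of the 4 groups with 5 comparisons, and p-values were adjusted by Benjamini-Hochberg over all 17318 tested genes; the threshold was 0.05. SE is the log2 difference divided by the root of F. Levels are TMM-scaled CPM, class means are of log2(CPM + 0.5), and lengths are the exon lengths in the count table. The scripts were tested on simulated data. Alternatives were DESeq2 1.42.0, its size factors, no filter or a mean of at least 1 CPM, the 2 groups alone, scaling without mitochondrial genome, ribosomal RNA and hemoglobin genes, limma 3.58.1 voom with quality weights, and leaving out each library.

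Values of every library are printed for the 16 called members with the largest log2 difference and for the most abundant member per length in each class. Other pathway genes are named if called, up to 6 per comparison, with Ppara always named; some genes that this rule names are not reported here. Protein sequences were not used here.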

Additional observations from a re-analysis of the deposited data

Results flagged for a closer look

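Among 140 groups of 4 libraries (35 members in 4 groups), 1 library lay far from the other 3 in 21, where chance flags about 1 in 20 groups, or 7. Of the 21, 13 were WT HFD library 4 at the low end. The measure is the gap to the nearest library as a share of the group's range, read against Dixon's critical value. For this library it was 0.924 in Acsl1, 0.865 in Slc25a20, 0.885 in Crat, 0.84 in Acadl, 0.842 in Hadh, 0.888 in Eci1, 0.918 in Acaa2, 0.877 in Etfdh, 0.849 in Acaa1b, 0.98 in Hsd17b4, 0.844 in Decr2, 0.877 in Bdh1 and 0.877 in Acat1. HuMgat2 HFD library 9 was low in Decr1 (0.846), Acaa1a (0.867) and Acaa1b (0.892), and HuMgat2 HFD library 12 was high in Pex11a (0.873). HuMgat2 chow library 14 was low in Acsl1 (0.885) and high in Ehhadh (0.858), HuMgat2 chow library 13 was high in Etfdh (0.949), and WT chow library 6 was low in Slc25a20 (0.908).

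The diet effect differed between the genotypes, by the interaction in edgeR, in 7 members, with log2 values of 2.56 for Pdk4, 1.59 for Crat, 1.30 for Crot, 1.29 for Pex11a, 0.94 for Ech1, 0.83 for Eci1 and 0.74 for Hadh. Of the other pathway genes, it was 3.24 for Abcd2, 3.10 for Fgf21, 1.39 for Slc16a1, -1.93 for Nudt7, -0.93 for Acadsb, -0.54 for Amacr and -0.39 for Med1, a subunit of the Mediator complex.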

How the results depend on the processing

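No log2 difference that was called changed sign in any alternative. In WT livers on HFD against chow the number of members higher, 1, was 5 with limma voom and 1 to 9 when 1 library was left out, the 9 without WT HFD library 4; the 3 lower stayed at 3. In HuMgat2 livers the 16 higher ranged from 13 to 22 without 1 library, and the 0 lower was 1 in the fit of the 2 groups alone, 1 with voom and 0 to 1 without 1 library. On HFD the 15 members higher in HuMgat2 than in WT were 8 in the fit of the 2 groups alone and 11 to 18 without 1 library, and the 0 lower was 1 with voom and 0 to 1 without 1 library. For the interaction the 7 positive members were 11 with voom and 5 to 13 without 1 library, and the 0 negative was 0 to 1. On chow all counts were 0. The number of all genes called moved with the setting too. Of 17318 genes, voom called 3944 for diet in WT, 3215 for diet in HuMgat2, 4323 for genotype on HFD and 1391 for the interaction. The main fit called 2617, 2418, 2558 and 844 in the same order. Without WT HFD library 4 the numbers were 2593, 3394, 2501 and 1129 of 17642. Of the values for single genes, 2295 kept their side of the threshold, 86 passed it newly and 148 lost it.

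No paired analysis was possible because the library numbers, 1 to 16, are not shared between groups. WT HFD library 4 has the fewest counts and limits all values that use WT HFD. Human MOGAT2 was not analysed here.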
